A study of Mus musculus with 8 samples.

Results

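The Wnt genes described here are the ligands, their Frizzled and Lrp receptors, the R-spondins with their Lgr receptors, the secreted antagonists of the Sfrp, Dkk and Wif families, and a small group of target and feedback genes. They were taken by symbol from the gene count table, which gave 54 of its 54532 entries, namely 19 ligands, 13 receptors, 7 R-spondin and Lgr genes, 10 secreted antagonists and 5 target and feedback genes. RNAseq was performed on pulmonary fibroblasts (pFBs) grown out of minced lung from female mice of C57/black background. The 4 WT libraries came from wild type mice. The 4 HOMO libraries came from mice homozygous for a CRISPR/Cas9 knock-in of human IGFBP5 (hIGFBP5), a secreted protein that binds insulin-like growth factors and is associated with fibrosis, expressed throughout the body from the Ef1a1 promoter. Neither genotype was treated, both were grown in serum, and neither the ages nor the number of mice are stated. The question of the comparison is which transcripts differ between fibroblasts with and without hIGFBP5. The human transgene was not analysed here.

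Wnt ligands are lipid-modified secreted proteins that bind Frizzled receptors. With the co-receptors Lrp5 and Lrp6 they stabilize β-catenin, and with co-receptors such as Ror2 they act through other routes on cell shape and movement. R-spondins bind Lgr4, Lgr5 and Lgr6 and keep Frizzled receptors at the cell surface, so they increase Wnt responses, while Sfrp proteins bind Wnt ligands outside the cell and several Dkk proteins bind Lrp5 and Lrp6. In the lung, fibroblasts are a source of these signals for the epithelium, and Wnt signaling is active in fibrotic tissue.

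Between 17236521 and 31987790 reads were counted per library. Levels are given as CPM, counts scaled to the library sizes after edgeR's TMM method, and differences as log2 fold changes of HOMO against WT with their standard errors (SE). Some libraries of a genotype were close to copies of each other. The biological coefficient of variation between WT1 and WT2 was 7.65%, that between HOMO1 and HOMO2 4.71% and that between HOMO3 and HOMO4 5.07%, against 30 to 56.4% for all other pairs of the same genotype. The study writes of its HOMO groups as mice, but the sample records do not say whether these near-identical libraries came from separate animals or cultures. The p-values and the SDs over 4 libraries therefore measure the spread between libraries, which may be technical. When a library of such a pair is left out of a fit, its near-identical partner stays in. A call kept with each library left out is therefore not a call kept without each pair. Fibroblast markers were abundant in all libraries, with a summed level of 19012 to 25816 CPM over 11 genes in WT and 19238 to 32052 CPM in HOMO. Summed over 8 genes, macrophage and leukocyte markers reached 1968 CPM in WT3 and 1150 CPM in WT4, against 131 CPM in WT1, 160 CPM in WT2 and 57.9 to 193 CPM in HOMO. None of the 8 was at 3 counts or fewer in every library. Epithelial markers summed to 0.0573 to 32.3 CPM in WT and 53.2 to 64.7 CPM in HOMO over 8 genes, of which Krt5 and Nkx2-1 stayed at or under 3 counts in every library. This sum was mostly Foxa2, at 32.1, 31.0, 0 and 3.98 CPM in WT and 51.8, 58.2, 47.5 and 56.5 CPM in HOMO (adjusted p = 0.316, edgeR), while Epcam, Sftpc, Sftpb and Scgb1a1 reached at most 6.58 CPM. Smooth muscle and pericyte markers summed over 8 genes to 827 to 2727 CPM in WT, 262 and 263 CPM in HOMO1 and HOMO2, and 1473 and 1452 CPM in HOMO3 and HOMO4. In HOMO this sum was mostly Acta2, at 190, 197, 1361 and 1335 CPM. Notch3 of the same list went the other way, at 61.9, 56.2, 18.3 and 22.0 CPM in HOMO1 to HOMO4. Mesothelial markers (7 genes) summed to 52.7 to 234 CPM in WT and 106 to 152 CPM in HOMO, and endothelial markers (8 genes, with Tie1, Emcn and Cldn5 at or under 3 counts) to 2.30 to 8.12 and 2.63 to 6.02 CPM. Single markers that edgeR called were Wt1 (log2 fold change 3.36, adjusted p = 0.0166, mesothelial), Cdh1 (2.77, 0.0462, epithelial), Rgs5 (-5.20, 0.0486, pericyte), and Pdgfrb (-0.97, 0.0251) and Vim (-0.65, 0.0430), both on the fibroblast list. In such bulk samples, fewer cells of a type and less RNA per cell cannot be told apart, and the part of these markers in the results below was not tested.

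Of the 54 Wnt genes, 33 passed edgeR's filter on low counts and 9 were called, with a Benjamini-Hochberg adjusted p under 0.05 over all 14150 tested genes and an absolute log2 fold change above 0.6. Among all tested genes 12.1% were called, or 1716. Calls over all genes fell to 507 without HOMO1, 512 without HOMO2, 1040 without HOMO3 and 980 without HOMO4, beside which the calls lost below are to be read. Sfrp1, Sfrp2, Dkk1, Fzd4 and Fzd6 were upregulated in HOMO, where the share of all tested genes called upward was 5.94%. Wnt2b, Rspo3, Rspo2 and Dkk2 were downregulated, where the share called downward was 6.18%. By role, edgeR called 4 of 7 tested antagonists, 2 of 5 R-spondin and Lgr genes, 2 of 11 receptors, 1 of 6 ligands and 0 of 4 target and feedback genes, and the roles were not tested against each other. In the last group, 1 gene had an unadjusted p under 0.05 in edgeR, and DESeq2 called 1. The 33 tested members had a median log2 fold change of 0.25, against -0.04 for all tested genes. In 11 of them the CPM of HOMO and WT libraries did not overlap, 6 with HOMO above and 5 with HOMO below, and this was so for 27.3% of all tested genes. DESeq2, the tool of the study, called 15 members among the 39 to which it gave an adjusted p, including all 9, against 16.5% of all genes. The other 6 were Wnt4, Dkk3 and Axin2, which edgeR tested, and Wnt10a, Wnt7a and Wnt2, which were outside edgeR's filter. When the counts of the 3 near-identical pairs were summed, which leaves 3 WT and 2 HOMO units, edgeR called 0 of 39 tested members and 0 genes in all. The adjusted p of the 9 genes then lay between 0.108 and 0.462. In that edgeR fit 10 of the 39 members and 2057 of 16130 tested genes had an unadjusted p under 0.05. Wnt2b was not among the 10 (unadjusted p = 0.107, edgeR).

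**Figure D1:**
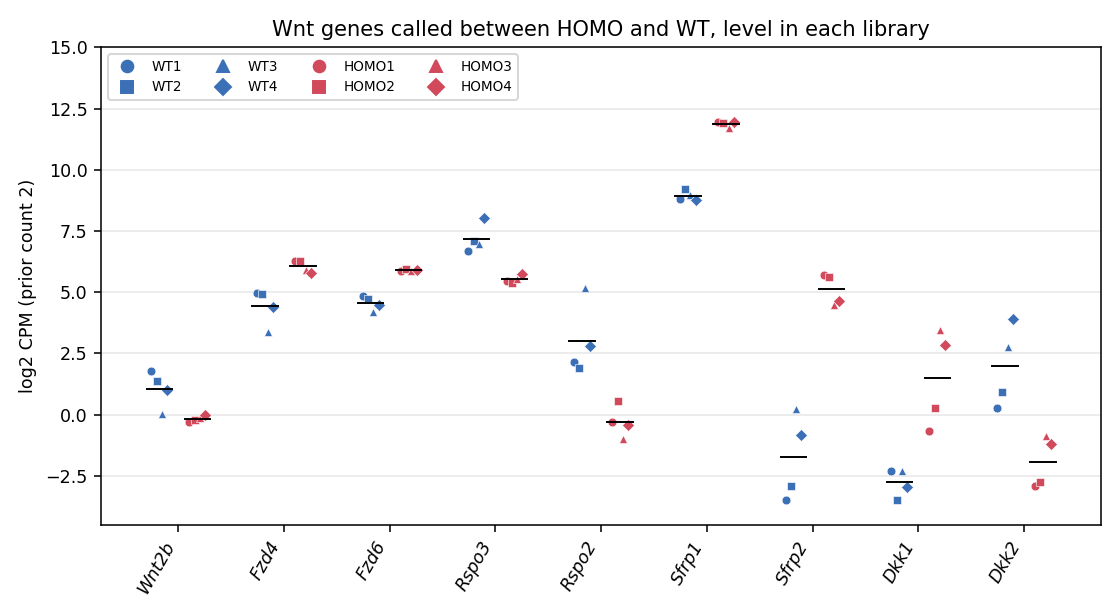
Level of the 9 called Wnt genes in each library on the log2 CPM scale (vertical axis, prior count of 2), with WT libraries in blue, HOMO libraries in red and the mean of each genotype as a black line. The genotypes do not overlap for any of the 9 genes, and Sfrp1 stands highest in both.

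Secreted antagonists showed the largest differences. Sfrp1, secreted frizzled-related protein 1 (chromosome 8, 23411502 to 23449632, plus strand, GRCm38), was at 446, 587, 498 and 439 CPM in WT1 to WT4 and at 3961, 3798, 3372 and 4001 CPM in HOMO1 to HOMO4. The means were 492 ± 68.4 CPM in WT and 3783 ± 288 CPM in HOMO (SD, n = 4 each). Every HOMO library was above every WT library, and the spread within each genotype was small beside the gap. Sfrp1 was upregulated 7.68-fold, with a log2 fold change of 2.94 (SE 0.18) and an adjusted p of 1.65e-04 in edgeR's quasi-likelihood test. By mean CPM it ranked 301 among the 14150 tested genes in WT and 9 in HOMO. Genes on chromosome 8 had a median log2 fold change of 0.37 as a group. Leaving out any 1 library kept Sfrp1 called, with log2 fold changes from 2.89 to 3.04.

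Sfrp2, a second member of the family, was close to undetected in WT, with 0, 1, 19 and 12 counts (0, 0.0428, 1.09 and 0.464 CPM), and had 1175, 1629, 435 and 496 counts in HOMO (52.3, 49.2, 22.0 and 24.8 CPM). The genotypes were widely separated, and within HOMO the first near-identical pair stood above the other. The log2 fold change was 6.56 (SE 0.91, adjusted p = 0.00501, edgeR), and it ranged from 6.16 to 7.59 when each library was left out. Reads on 16.1% of its exon bases may also come from Gm26771, an antisense gene, because the library kit does not mark strand. Dkk1, which binds Lrp5 and Lrp6 and blocks β-catenin signaling, had 2, 0, 2 and 1 counts in WT and 12, 37, 215 and 141 counts in HOMO. Every WT library was within the 3 counts taken as the floor of counting, and HOMO3 and HOMO4 carried most of the HOMO signal. Dkk1 was at least 33.5-fold higher in HOMO when set against that floor in each WT library (adjusted p = 0.0162, edgeR, log2 fold change 6.19, SE 1.22). It was called with each library left out, with values from 5.43 to 6.57, and without HOMO3 the bound fell to 19.9-fold. HOMO4, the near-identical partner of HOMO3, stayed in there, so both bounds rest mainly on this pair. Dkk1 was not fitted without the pair. Dkk1 was at 10.9 and 7.06 CPM in HOMO3 and HOMO4 against 0.534 and 1.12 CPM in HOMO1 and HOMO2. The smooth muscle, fibroblast, macrophage and endothelial marker sums were also higher in HOMO3 and HOMO4, and the mesothelial sum was lower. Whether any of these bears on Dkk1 was not tested.

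Dkk2, a Dkk family member that binds the same co-receptors, moved the other way. It was at 1.12, 1.80, 6.64 and 15 CPM in WT and 0.0445, 0.0604, 0.456 and 0.350 CPM in HOMO. All HOMO libraries were below all WT libraries, and WT3 and WT4 were the highest. These 2 libraries also had higher macrophage, smooth muscle, mesothelial and endothelial marker sums than WT1 and WT2, and lower epithelial sums. Whether any of these bears on Dkk2 was not tested. Dkk2 was downregulated 27.8-fold, with a log2 fold change of -4.79 (SE 1.06, adjusted p = 0.0234, edgeR), and this call was lost without HOMO1 (adjusted p = 0.0784), HOMO2 (0.0813) or HOMO4 (0.0554). With WT1 and WT2 alone as the WT group, a comparison added after the data were seen that rests on a near-identical pair, Dkk2 was still called at -2.75 (SE 0.79, adjusted p = 0.0389, edgeR).

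For 37 of the 54 genes RefSeq gave a promoter on GRCm38.p6, and the 250 bases before each start were searched for letters that TCF/LEF factors and the TATA-binding protein are known to recognize. The 6 letters CTTTGA on either strand, the core of the TCF/LEF motif, were found before the start of 6 of the 37 genes (Dkk1, Frzb, Fzd1, Lef1, Wnt11 and Wnt5b), or 16.2%, against 15.8% of the 27025 genes with a promoter and 13.8% of all 32851 promoters. The longer CTTTGAT, which contains it, was found for Wnt11 and Wnt5b (5.41% of the 37 genes), against 3.72% of all genes and 3.21% of all promoters. TATAAA on the gene's own strand was found for Dkk1, Dkk2, Fzd1 and Wnt11 (10.8% of the 37 genes), against 8.94% of all genes and 7.59% of all promoters. The antagonists with the largest opposite changes are shown 5′ to 3′, with CTTTGA, its reverse complement TCAAAG and TATAAA in capitals. For Sfrp2 (chr3:83766071-83766320, plus strand) and Dkk2 (chr3:132085042-132085291, plus strand), these are the 250 bases that end at the start, and for Dkk1 the 30 bases around each of its matches (chr19:30549653-30549682 and chr19:30549596-30549625, minus strand).
Sfrp2: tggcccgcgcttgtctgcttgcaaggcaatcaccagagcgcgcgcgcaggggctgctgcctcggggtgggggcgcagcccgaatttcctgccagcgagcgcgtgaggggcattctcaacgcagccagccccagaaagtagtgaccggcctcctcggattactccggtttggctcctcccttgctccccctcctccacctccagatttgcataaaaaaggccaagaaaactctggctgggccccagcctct
Dkk2: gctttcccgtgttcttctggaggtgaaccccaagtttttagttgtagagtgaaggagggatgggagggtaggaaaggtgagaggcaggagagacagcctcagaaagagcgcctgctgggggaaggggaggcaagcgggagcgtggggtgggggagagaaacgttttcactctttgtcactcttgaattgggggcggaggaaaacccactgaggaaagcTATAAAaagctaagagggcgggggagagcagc
Dkk1, first match: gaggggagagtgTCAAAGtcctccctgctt
Dkk1, second match: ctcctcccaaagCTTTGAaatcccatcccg
In Dkk2 the TATAAA begins 32 bases before the start, while the stretch of Sfrp2, with 63.6% G and C and 16 CG pairs against 55.6% and 7 in Dkk2, holds none of the letters searched. In Dkk1 the matches begin 174 and 117 bases before the start, and its TATAAA, outside the stretches shown, begins 54 bases before it. These distances are from the RefSeq start. In GENCODE, the gene model used for the other positions, 13 of the 30 bases of the first Dkk1 stretch lie inside the gene. Of the second stretch, all 30 do. The second match and the TATAAA of Dkk1 thus lie upstream of the RefSeq start only. The first match lies upstream of both starts except for its last base, which is inside the GENCODE gene. A match describes the letters only.

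The other antagonists differed more among WT libraries than between genotypes. Dkk3, a divergent Dkk family member, was at 135, 172, 1296 and 49.6 CPM in WT and 50.3, 43.3, 96.0 and 108 CPM in HOMO. WT3 stood far above all others and WT4 lay within the HOMO range. Its log2 fold change of -2.48 (SE 0.94) did not pass the test (adjusted p = 0.110, edgeR) and became -0.68 (adjusted p = 0.342) without WT3, while DESeq2 called it on all 8 libraries at -2.47 (adjusted p = 0.0139). Frzb, also known as Sfrp3, was at 58.7, 76.3, 11.9 and 304 CPM in WT and 182, 195, 130 and 142 CPM in HOMO. WT4 was the highest and WT3 the lowest of all libraries, so that HOMO lay inside the WT range, and the log2 fold change of 0.52 (SE 0.75, adjusted p = 0.669, edgeR) became 1.73 (adjusted p = 0.0769) without WT4. Sfrp4 showed a log2 fold change of -1.36 (SE 0.65, adjusted p = 0.187, edgeR), with 17.7 and 18.2 CPM in WT1 and WT2, 1.37 and 6.50 CPM in WT3 and WT4, and 3.49 to 5.06 CPM in HOMO. Without WT3 its value was -1.72, with an adjusted p of 0.0182. The remaining antagonists were outside the filter. Wif1, a Wnt-binding protein, had 0, 2, 0 and 5 counts in WT and 0, 1, 0 and 0 in HOMO, Sfrp5 had 1 count in all, and Dkk4 had 0.

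Per kilobase of exon, the antagonists summed to 165, 214, 506 and 215 CPM per kb in WT1 to WT4 and to 1003, 966, 856 and 1007 CPM per kb in HOMO1 to HOMO4. Sfrp1 made up 61.9, 62.8, 22.5 and 46.7% of this sum in WT and 89.9 to 90.9% in HOMO. In WT3, Dkk3 made up 76.3%, and in WT4, Frzb made up 43.7%. In HOMO the order per kb was Sfrp1 at 865 CPM per kb, Frzb at 50.1, Dkk3 at 22.1 and Sfrp2 at 17.2, where in WT Dkk3 (123) and Sfrp1 (113) came before Frzb (34.8), and the WT values of Dkk3 and Frzb rest on WT3 and WT4. The shares are descriptions and cover transcripts, not secreted protein.

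**Figure D2:**
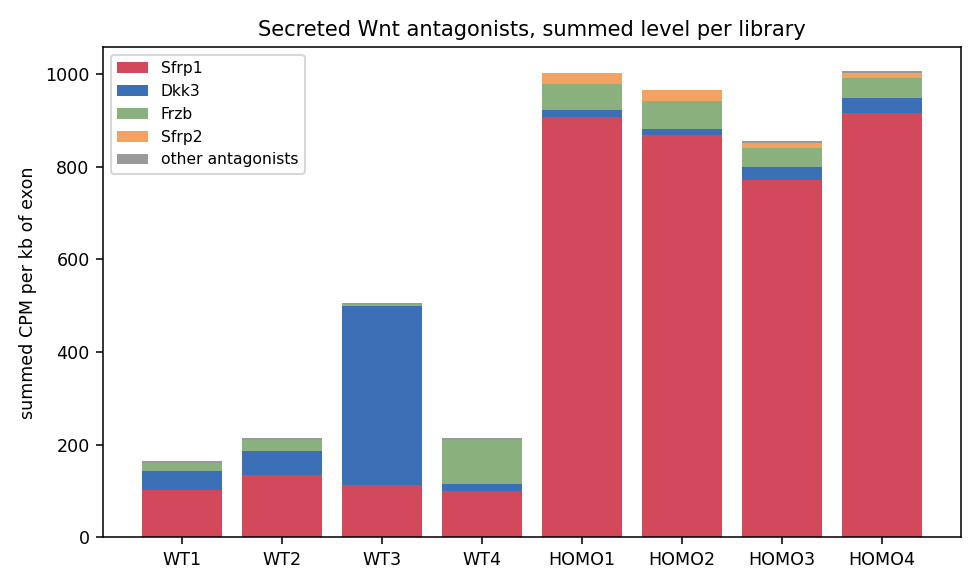
Summed level of the 10 secreted antagonists in each library (vertical axis, CPM per kilobase of exon), stacked by gene. Sfrp1 fills 89.9 to 90.9% of each HOMO bar, while WT3 is mostly Dkk3 and WT4 is shared by Sfrp1 and Frzb.

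Rspo3 and Rspo2 were downregulated in HOMO. Rspo3, the most abundant R-spondin per kb in both genotypes, was at 102, 134, 123 and 257 CPM in WT and at 44.2, 41.1, 46.5 and 52.9 CPM in HOMO. The HOMO libraries, at 46.2 ± 4.98 CPM (SD, n = 4), lay close together and below all WT libraries, at 154 ± 69.7 CPM, of which WT4 was the highest. Rspo3 was downregulated 3.34-fold (log2 fold change -1.74, SE 0.28, adjusted p = 0.00854, edgeR) and was called with each library left out, at -1.38 without WT4. Part of its exon sequence, 13.1%, is shared with the antisense gene Gm48159. Rspo2, a second R-spondin, was at 4.38, 3.64, 35.6 and 6.88 CPM in WT and 0.712, 1.39, 0.405 and 0.651 CPM in HOMO. WT3 was far above all other libraries, and the genotypes did not overlap. Its log2 fold change was -3.96 (SE 0.85, adjusted p = 0.0217, edgeR), and -2.62 (adjusted p = 0.00970) without WT3. The call on Rspo2 was lost without any 1 of the HOMO libraries, with adjusted p between 0.0563 and 0.0783.

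Rspo1 had 0 and 0 CPM in WT1 and WT2, 9.05 CPM in WT3 and 0.967 CPM in WT4, and 10.4, 10.9, 6.58 and 6.81 CPM in HOMO. WT3 lay inside the HOMO range and the other WT libraries far below it. The log2 fold change of 1.81 (SE 1.36) did not pass the test (adjusted p = 0.389, edgeR), and without WT3 it was 4.63 (SE 1.13, adjusted p = 0.0295). Of their receptors, Lgr4 showed -0.26 (adjusted p = 0.519) and Lgr6 -0.28 (adjusted p = 0.888). Lgr6 was split within HOMO, at 0.178 and 0.121 CPM in HOMO1 and HOMO2 and 7.09 and 4.86 CPM in HOMO3 and HOMO4, against 1.03 to 5.34 CPM in WT. Lgr5 had 8 and 6 counts in HOMO3 and HOMO4 and 0 or 1 in all other libraries (two-sided exact permutation p = 0.429), and Rspo4 had 1 count in all.

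Among the receptors, Fzd4 and Fzd6 were upregulated while the most abundant Frizzled genes were not called. Fzd4, which also serves as the receptor of norrin, was at 31.5, 30.4, 10.3 and 20.8 CPM in WT and 78.2, 76.8, 59.1 and 54.3 CPM in HOMO. All HOMO libraries were above all WT libraries, of which WT3 was the lowest. The change was 2.88-fold (log2 fold change 1.53, SE 0.33, adjusted p = 0.0221, edgeR) and was not called without HOMO1 (adjusted p = 0.0731) or HOMO2 (0.0739). Fzd6, a receptor linked to planar cell polarity, was at 28.8, 26.0, 17.9 and 22.3 CPM in WT and at 57.9, 61.6, 58.2 and 60.2 CPM in HOMO. The HOMO libraries were nearly alike, at 59.5 ± 1.72 CPM against 23.8 ± 4.71 CPM in WT (SD, n = 4 libraries, which hold near-identical pairs). Fzd6 was upregulated 2.50-fold (log2 fold change 1.32, SE 0.16, adjusted p = 0.00326, edgeR) and was called with each library left out. With near-identical libraries summed it was not called (adjusted p = 0.215, edgeR).

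Fzd1, Fzd2 and Fzd7, which lead the Frizzled family per kb in both genotypes, did not pass the test. Fzd1 was at 125, 147, 156 and 231 CPM in WT and 209, 197, 237 and 245 CPM in HOMO, with WT4 inside the HOMO range (log2 fold change 0.43, SE 0.20, adjusted p = 0.170, edgeR). Without WT4 its value was 0.64 (SE 0.14, adjusted p = 0.0271). Fzd2 was at 117, 122, 246 and 244 CPM in WT and 117, 124, 139 and 131 CPM in HOMO, so that WT1 and WT2 matched HOMO and only WT3 and WT4 stood above it (-0.51, SE 0.27, adjusted p = 0.222, edgeR). With WT1 and WT2 alone, its difference was 0.09, in the opposite direction. Fzd7 was at 153, 149, 175 and 219 CPM in WT and 123, 121, 143 and 140 CPM in HOMO. Its genotypes did not overlap, but the difference of -0.40 (SE 0.15) had an adjusted p of 0.111 (edgeR) and lay under the fold threshold. Per kb, in HOMO, Fzd1 came first at 52.9 CPM per kb, followed by Fzd2 (34.9), Fzd7 (29.0), Fzd6 (12.3) and Fzd4 (9.99). In WT the order was Fzd2 (49.7), Fzd1 (39.3), Fzd7 (38.4), Fzd8 (13.9), Fzd5 (7.59), Fzd6 (4.93) and Fzd4 (3.46), and the leading WT receptors were not separated beyond the spread of their libraries.

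Lrp6, the main co-receptor of the β-catenin route, was at 120, 127, 98.2 and 162 CPM in WT and 185, 171, 143 and 140 CPM in HOMO (log2 fold change 0.33, SE 0.18, adjusted p = 0.228, edgeR). Lrp5, its relative, was at 108, 99.9, 85.2 and 94.5 CPM in WT and 116, 118, 121 and 106 CPM in HOMO (0.25, SE 0.12, adjusted p = 0.18). Both overlapped between genotypes. Fzd8 was at 53.1, 49.5, 144 and 85.8 CPM in WT and 49.7, 50.4, 48.1 and 45.8 CPM in HOMO (-0.78, SE 0.32, adjusted p = 0.135, edgeR). Its difference came from WT3 and WT4, and with WT1 and WT2 alone it was -0.08. Fzd5, which shares 17.8% of its exon bases with the unclassified gene Gm38058 (-0.21, adjusted p = 0.726), Ror2, a co-receptor for Wnt5a (-0.22, adjusted p = 0.529), and Fzd3 (0.19, adjusted p = 0.689) were not called. Fzd9 (1 to 14 counts per library) and Fzd10 (0 to 4) were outside the filter, with exact permutation p of 0.886 and 0.714. Summed per kb, the 13 receptors reached 151 to 230 CPM per kb in WT and 178 to 191 CPM per kb in HOMO.

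Of the 19 ligands, 6 passed the filter, and their summed level per kb was far below that of the receptors, at 8.38 to 16.5 CPM per kb in WT and 14.1 to 15.7 CPM per kb in HOMO. Wnt9a and Wnt5a had the highest means per kb in both genotypes. The WT rank of Wnt5a rested on WT3, at 65.9 CPM against 5.0, 5.61 and 11.2 CPM in WT1, WT2 and WT4. Wnt2b, a ligand of the β-catenin route, was the 1 that was called, at 3.37, 2.53, 0.917 and 1.93 CPM in WT and 0.712, 0.755, 0.810 and 0.901 CPM in HOMO. All HOMO libraries were below all WT libraries, but WT3 was almost at the HOMO level. The log2 fold change was -1.46 (SE 0.41) with an adjusted p of 0.0482 (edgeR), just under the threshold. The call was kept when WT3 was left out (-1.71, adjusted p = 0.00904) and lost when any other library was, with adjusted p from 0.0618 to 0.144. It was also lost with upper-quartile normalization (adjusted p = 0.0508) and with no filter on low counts (0.0964). Wnt4 was at 1.69, 2.06, 0.458 and 1.97 CPM in WT and 2.36, 2.39, 7.19 and 6.96 CPM in HOMO. The genotypes did not overlap, and HOMO3 and HOMO4 were well above HOMO1 and HOMO2, which lay near WT. Its log2 fold change of 1.60 (SE 0.57) had an adjusted p of 0.0931 in edgeR and 0.0274 in DESeq2. WT3 was well below the rest of WT, and without it the value was 1.30 (adjusted p = 0.102, edgeR).

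Wnt5a, a ligand of the routes outside β-catenin, was at 5.0, 5.61, 65.9 and 11.2 CPM in WT and 41.2, 36.1, 28.2 and 27.0 CPM in HOMO. WT3 was the highest of all libraries and the other WT libraries were below every HOMO library. On all 8 libraries the log2 fold change was 0.60 (SE 0.77, adjusted p = 0.629, edgeR), and without WT3 it was 2.18 (SE 0.33, adjusted p = 0.00683). Wnt9a (0.33, adjusted p = 0.451), Wnt5b (0.27, adjusted p = 0.740) and Wnt16 (-0.31, adjusted p = 0.866) were not called. Wnt16 reached 4.72 CPM in WT4 and 2.20 CPM in HOMO4 against 0.172 to 1.42 CPM elsewhere, and without WT4 its value turned to 1.92 (SE 0.71, adjusted p = 0.108, edgeR).

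The other 13 ligands were outside the filter, and 7 of them had more than 3 counts in some library. Their CPM was compared by two-sided exact permutation tests, in which the 70 ways to split the libraries allow no p below 0.0286, and Wnt7a and Wnt2 reached this smallest p. Wnt7a, a ligand known from epithelium, had 0, 0, 1 and 3 counts in WT and 13, 12, 17 and 8 in HOMO, at least 3.77-fold higher against the floor. Wnt2, a ligand known from lung mesenchyme, had 2, 5, 5 and 13 counts in WT and 0, 0, 1 and 0 in HOMO, at least 2.12-fold lower. The separation was complete for both, at a few counts per library, and DESeq2 called both, with adjusted p of 0.00512 for Wnt7a and 0.0137 for Wnt2. With near-identical libraries averaged, both had an exact permutation p of 0.2, and 3 against 2 units cannot give a p under 0.05. Wnt10a had 61 and 65 counts in WT1 and WT2, 0 and 3 in WT3 and WT4, and 0 to 2 in HOMO (exact permutation p = 0.2), so its WT level rested on the near-identical pair. DESeq2 called Wnt10a (adjusted p = 0.00326). Wnt11 (p = 0.229), Wnt10b (p = 1), Wnt6 (p = 0.943) and Wnt7b (p = 0.286), with largest counts of 24, 13, 14 and 4, overlapped between genotypes in the same exact permutation tests. Wnt3, Wnt1, Wnt8b, Wnt3a and Wnt8a had at most 3 counts in any library and Wnt9b had 0, so that differences in these were not detectable at this depth.

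**Figure D3:**
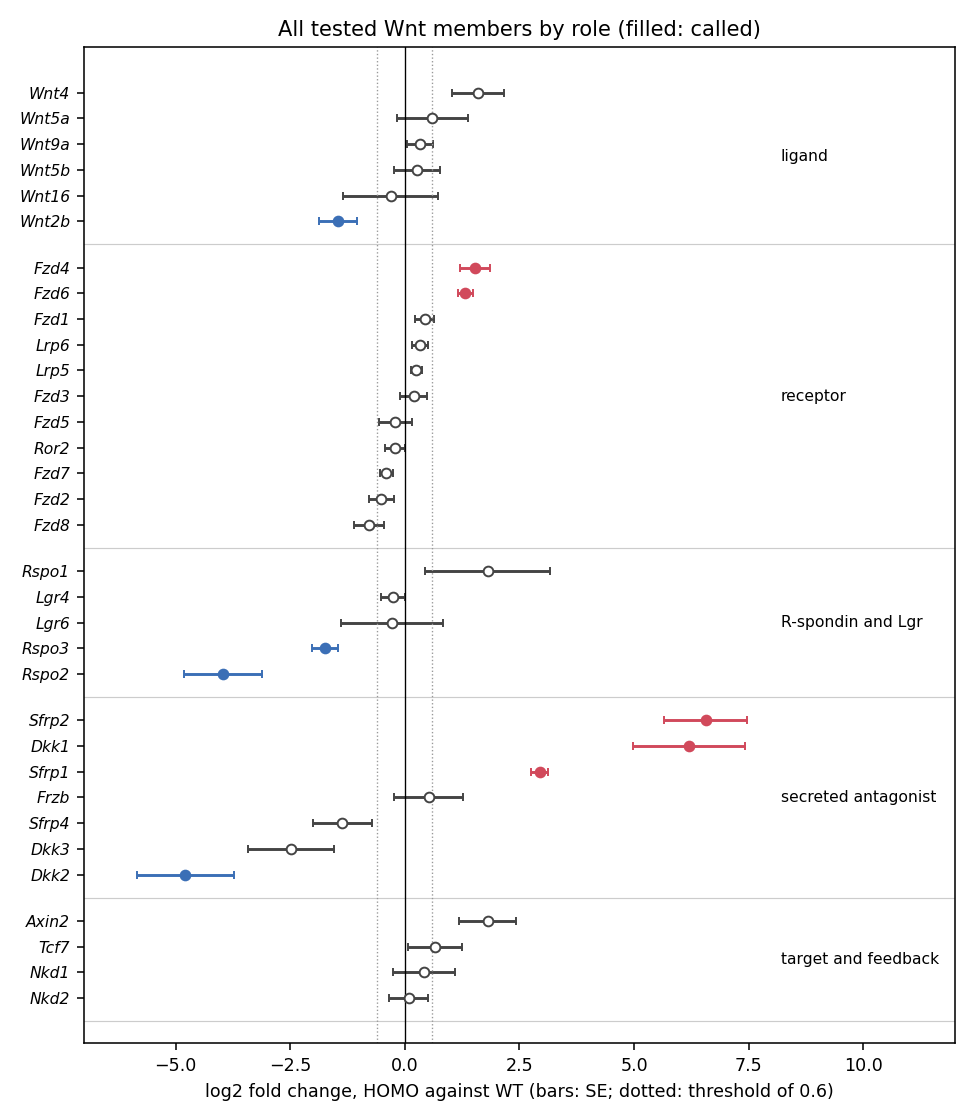
Log2 fold change of HOMO against WT (horizontal axis) for the 33 tested members, grouped by role, with SE as bars, called genes filled in red (up) or blue (down) and the threshold of 0.6 as dotted lines. The largest values are among the antagonists, from -4.79 for Dkk2 to 6.56 for Sfrp2, and the receptors lie between -0.78 and 1.53.

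None of the 4 tested target and feedback genes was called by edgeR. Axin2, a scaffold of the β-catenin destruction complex and a common readout of that route, was low in all libraries, at 0.281, 0.214, 1.37 and 0.309 CPM in WT and 2.76, 1.51, 1.27 and 2.0 CPM in HOMO. WT3 lay within the HOMO range and the other WT libraries below it. Its log2 fold change was 1.81 (SE 0.62, adjusted p = 0.0864, edgeR; 0.0252 in DESeq2), and 2.78 (SE 0.41, adjusted p = 0.00594) without WT3. Nkd1, an inhibitor of Dishevelled that the route induces, was at 23.3, 32.0, 14.4 and 150 CPM in WT and 91.2, 94.8, 53.2 and 55.3 CPM in HOMO. WT4 was the highest of all libraries and the other WT libraries were below HOMO, so the value of 0.42 (SE 0.67, adjusted p = 0.70, edgeR) became 1.66 (SE 0.34, adjusted p = 0.0232) without WT4. Nkd2 (0.08, adjusted p = 0.918) and the transcription factor Tcf7 (0.66, adjusted p = 0.468) were not called, and Tcf7 without WT3 stood at 1.5 (adjusted p = 0.0342). Lef1, a second TCF/LEF factor, had 6 and 10 counts in WT1 and WT2 and 0 in the other 6 libraries (exact permutation p = 0.429).

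Levels of most members spanned a wider range in WT than in HOMO, as did those of most genes. With each near-identical pair counted once, WT holds 3 distinct units and HOMO 2, so the ranges do not rest on equal numbers. The range of log2 CPM was wider in WT than in HOMO for 30 of the 33 tested members, or 90.9%, against 83.2% of all tested genes, with a median range of 1.92 in WT and 0.53 in HOMO for the members and of 0.97 and 0.43 for all genes. The widest WT ranges belonged to Rspo1 (6.68), Dkk3 (4.71) and Frzb (4.66), and the narrowest to Lrp5 (0.34) and Sfrp1 (0.42). Dkk1, Lgr6 and Lgr4 were the exceptions, with ranges of 4.14, 5.10 and 1.01 in HOMO. WT3 was the lowest of the 8 libraries for 13 members and the highest for 7, and WT4 was the highest for 10. WT3 or WT4 was at an extreme for 25 of 33 members (75.8%), which is less than the 80.7% of all tested genes. On chromosomes 3 and 7, which carry Wnt2b, Sfrp2, Dkk2 and Lef1 and also Fzd4 and Dkk3, the median gene in WT3 stood 0.37 and 0.36 on the log2 scale above the other WT libraries, and on chromosome 4, with Wnt4 and Rspo1, the median gene in WT4 stood 0.36 above.

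**Figure D4:**
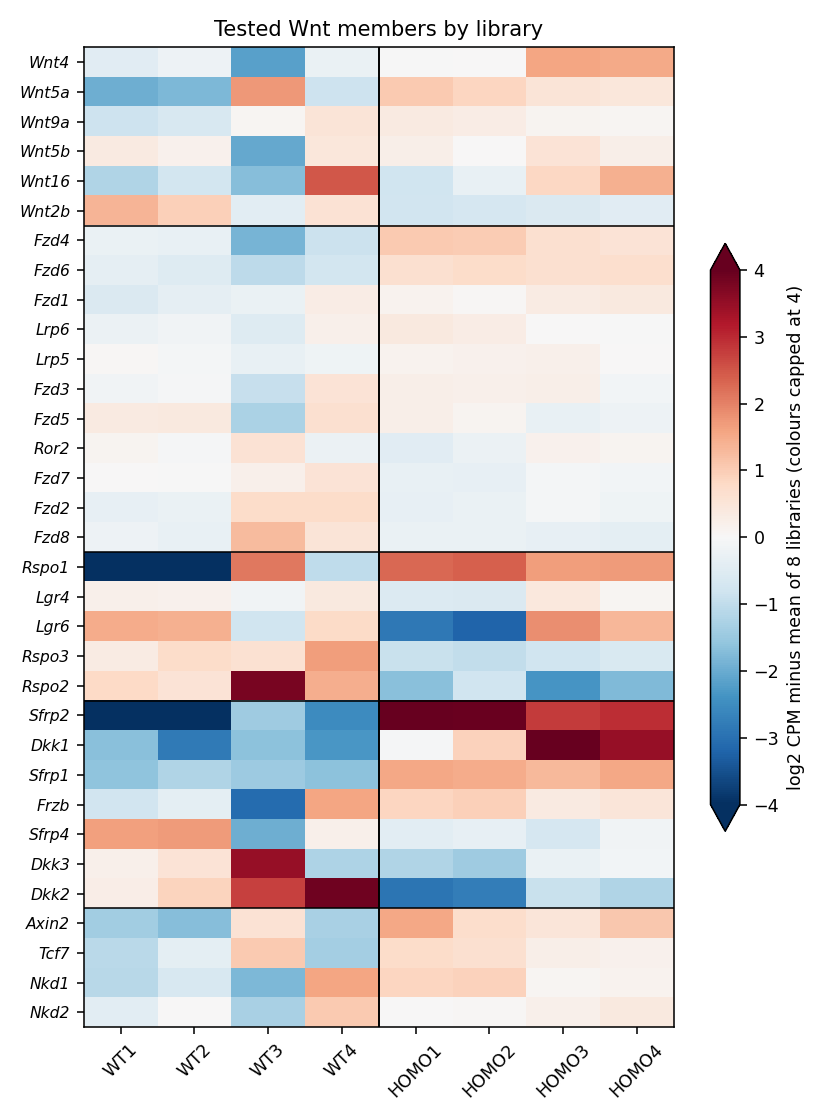
Level of the 33 tested members in each library as log2 CPM minus the mean of the 8 libraries (colour, capped at 4 on either side), ordered by role and fold change, with WT left of the vertical line. WT3 and WT4 depart from WT1 and WT2 in opposite directions for several genes, such as Frzb and Nkd1, while each HOMO near-identical pair looks alike.

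The wider Wnt pathway was described with a list of 67 further genes, of which 55 were tested and 12 were called, against 12.1% of all genes. Their median log2 fold change was 0.12, and 23 were without overlap, 18 with HOMO above, against 27.3% of all tested genes without overlap. Upregulated were 9 genes (background 5.94%). Draxin, a secreted guidance protein that antagonizes Wnt signaling, was at 0.281, 0.257, 0.286 and 0.348 CPM in WT and 26.0, 25.3, 14.9 and 13.6 CPM in HOMO. It was the largest change on the list at a log2 fold change of 6.06 (SE 0.34, adjusted p = 1.41e-04, edgeR). Daam2, a formin that binds Dishevelled, was at 15.4, 23.5, 15.4 and 11.8 CPM in WT and 202, 207, 119 and 131 CPM in HOMO (3.32, SE 0.29, adjusted p = 8.00e-04). Both were higher in every HOMO library, and in HOMO1 and HOMO2 more so than in HOMO3 and HOMO4. Dact1, which binds Dishevelled and modulates both kinds of route, was at 0.562, 1.20, 15.1 and 6.61 CPM in WT and 166, 154, 62.4 and 73.9 CPM in HOMO (4.29, SE 0.94, adjusted p = 0.0231). Its relative Dact2 showed 3.02 (SE 0.82, adjusted p = 0.0447), with 0 to 11 counts in WT and 34 to 58 in HOMO.

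Porcn, the acyltransferase that adds the lipid to Wnt ligands, rose from 2.92, 3.60, 8.13 and 5.92 CPM in WT to 36.6, 34.4, 18.8 and 23.3 CPM in HOMO (2.46, SE 0.37, adjusted p = 0.00691, edgeR). Wls, which carries the ligands to the cell surface, was not called (-0.49, adjusted p = 0.218). The polarity genes Celsr2 (1.80, SE 0.37, adjusted p = 0.0183) and Prickle2 (0.97, SE 0.19, adjusted p = 0.0153), the destruction complex member Apc2 (1.24, SE 0.18, adjusted p = 0.00600) and the corepressor Tle2 (0.92, SE 0.17, adjusted p = 0.0132) were upregulated as well. Downregulated were 3 genes (background 6.18%). Cthrc1, a secreted collagen triple helix protein that acts in the polarity route, was at 29.4, 35.0, 73.6 and 4.37 CPM in WT and 0, 0.0302, 1.42 and 2.55 CPM in HOMO (-5.20, SE 1.33, adjusted p = 0.0370). WT4 stood nearest to HOMO. Ccnd1, cyclin D1 (-1.55, SE 0.40, adjusted p = 0.0376), and Gpc4, a cell surface glypican (-0.90, SE 0.23, adjusted p = 0.0389), were the other two, and in Ccnd1 WT3 (148 CPM) was close to HOMO3 (144 CPM). Draxin, Daam2, Apc2 and Porcn were called with each library left out. The remaining 8 were not called without HOMO1 or without HOMO2, and the 3 downregulated genes and Dact2 were not called without any 1 of the HOMO libraries. Over all genes, calls fell from 1716 to 507 without HOMO1 and to 512 without HOMO2. Of the 8 fits with a library left out, Dact2 and Ccnd1 were called in 1, Cthrc1 in 2 and Gpc4 in 3. Ctnnb1, which encodes β-catenin, was not called (0.17, adjusted p = 0.367).

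**Figure D5:**
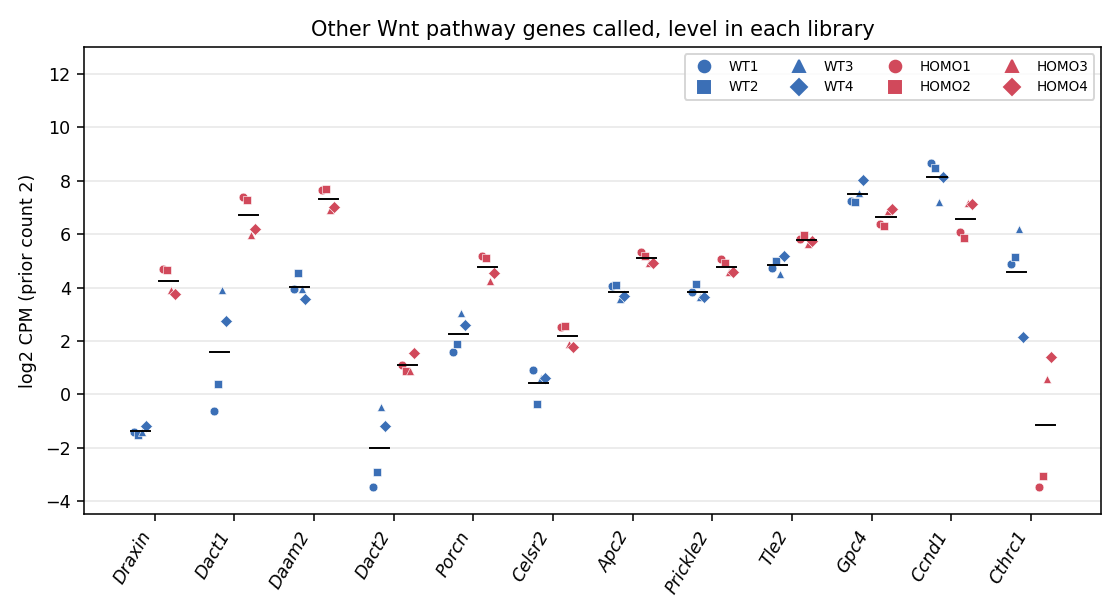
Level of the 12 called genes of the wider pathway list in each library on the log2 CPM scale (vertical axis, prior count of 2), ordered by fold change, with WT in blue, HOMO in red and the mean of each genotype as a black line. Draxin separates the genotypes most, at 0.257 to 0.348 CPM in WT and 13.6 to 26.0 CPM in HOMO.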

How the data were processed

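Counts were made by the authors before deposition: reads were trimmed with fastp, aligned with STAR to mm10 and counted per gene with featureCounts, and the deposited counts were not normalized. The table carries the label "outlierout", and what was left out is not given in the sources used here. Per the labels, the libraries form 2 genotypes of 4, and 0 columns were left aside.

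Members and lists were chosen with earlier results of these data known. The main test was edgeR 4.0.16 (TMM, filterByExpr by genotype, two-sided quasi-likelihood F test, Benjamini-Hochberg adjustment over 14150 genes). DESeq2 1.42.0 and limma 3.58.1 (voom with sample quality weights) served as alternatives, all in R 4.3.3. Python 3.11.15 with scipy 1.17.1, pandas 2.3.3, numpy 2.4.6 and matplotlib 3.10.9 served for exact permutation tests and figures. Calls needed an adjusted p below 0.05 and a log2 fold change beyond 0.6 in either direction, as in the study. The SE is the absolute log2 value over the root of F. Full statistics are given for called members, tested members without overlap and those with a mean of at least 50 CPM (19 in all), and up to 5 others per role by fold change. Levels per library of some further members were added after their values were seen. The floor of 3 counts corresponded to 0.0911 to 0.172 CPM, which covers counting error only. Positions and exon lengths come from GENCODE M21 (GRCm38), which matched all 54 members, and promoters from RefSeq (GRCm38.p6). Alternatives were other normalizations, filters and tools, the replicate number as a block, summing near-identical libraries, leaving out each library and, added after the data were seen, WT1 and WT2 as the only WT libraries.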

Additional observations from a re-analysis of the deposited data

Results flagged for a closer look

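In 1 of 38 groups of 4 libraries tested, over the 19 members given full statistics, a library stood apart by Dixon's criterion: Wnt4 in WT3, at -0.87 log2 CPM, where the other WT libraries were at 0.83 to 1.10. Its gap to the nearest library was 0.861 of the range, above the critical value for 4 libraries. Chance alone gives about 1 such library in 20 groups of 4 independent libraries. Both genotypes held near-identical pairs, so this rate may not apply here.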

How the results depend on the processing

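The 9 called members kept their direction under every alternative run. Limma-voom was run with sample quality weights, so the 8 libraries did not count equally in that fit. Called members (9 in all, 5 up and 4 down) numbered 15 with DESeq2 (8 up, 7 down) and 20 with limma-voom (14 up). They numbered 19 with WT1 and WT2 alone (13 up), and 0 with near-identical libraries summed. Calls over all genes moved too, from 1716 to 2913, 3573, 3117 and 0 in that order, and to 507 to 2192 with 1 library left out. Leaving out 1 library gave 5 to 14 members, 4 to 9 of them up and 1 to 5 down. Called genes of the wider list (12, 9 up and 3 down) numbered 0 with near-identical libraries summed, 4 to 15 with 1 library left out (4 to 10 up, 0 to 5 down), and 5 were down with DESeq2, limma-voom or WT1 and WT2 alone. Of the tested members, 6 changed direction under some alternative, 0 of them called: Fzd2 with limma-voom (0.08) and WT1 and WT2 alone (0.09), Wnt16 with these (1.40, 1.65), the block (0.55) and without WT4 (1.92), and Wnt5b, Fzd3, Lgr6 and Nkd2 with a library left out, to values between -0.19 and 0.13. Summing the counts leaves fewer units by construction. The cause of these shifts, with summed counts as well, was not tested.

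The replicate numbers of the labels did not pair WT with HOMO libraries: deviations of same-numbered libraries correlated at -0.091, -0.0424, 0.0141 and -0.124, and 0 of 8 libraries correlated best with their own number. With the number as a block, 7 members were called (2 down) and 947 genes in all, without Rspo2 (-3.30, adjusted p = 0.0813) and Wnt2b (-1.34, adjusted p = 0.130), by edgeR. Wnt7a and Wnt2 could not pass 0.05 with a library left out, where the smallest exact permutation p is 0.0571. Low counts limit Dkk1, Dkk2, Wnt2b and all members outside the filter.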
